A study of Mus musculus with 4 samples.

Results

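Krüppel-like factors were followed in heart muscle cells under pressure overload. The genes were taken by symbol from the count file of each library, and all 10 of the family members sought (Klf2, Klf3, Klf4, Klf5, Klf6, Klf7, Klf9, Klf10, Klf13 and Klf15) were among its 22322 genes. The samples were cardiomyocytes of 2 sham-operated mice and 2 mice that had undergone TAC (transverse aortic constriction), in which a narrowed aorta raises the load on the left ventricle. Male mice were operated on at 2 months of age, and the methods name 14 weeks both as the time after surgery and as the age at isolation. Ketamine and xylazine were the anaesthetics at surgery, and neither the labels nor the methods on these mice give a strain or a transgene. Cells were released by Langendorff perfusion with no further sort described, and each library came from the cells of a single heart, so the spread within a group is that between 2 animals.

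Krüppel-like factors are transcription factors with zinc fingers at the carboxyl end that bind CACCC and GC-rich elements. The fingers are much alike across the family, while the remaining parts differ and recruit coactivators or corepressors. In the heart, Klf15 is known as a brake on hypertrophic growth and a regulator of lipid and amino acid use, Klf2 and Klf4 as flow-induced factors of the endothelium, and Klf4, Klf6 and Klf10 as genes that respond fast to stimuli.

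The libraries held 24237777 to 32118323 counts. The 13 protein-coding mitochondrial genes took 39.84% to 40.85% of them in the sham libraries, 47.42% in TAC 1 (95% Wilson interval 47.4% to 47.43%, for counting error alone) and 40.35% in TAC 2 (40.33% to 40.37%). The cardiomyocyte label was borne out by Myh6, the alpha-myosin heavy chain, at 23200 to 29400 CPM (counts per 1000000 of the TMM-scaled library, edgeR log2 fold change −0.18 ± 0.14 with an adjusted p of 0.419). Summed over 12 cardiomyocyte markers, the libraries lay between 77400 and 86200 CPM, and 1 marker, Csrp3, was called higher in TAC and 0 lower. With total-count scaling, as with limma, 0 were called higher and 1 lower, with DESeq2 5 higher and 1 lower, and without TAC 2 4 higher and 1 lower. Genes of other cell types were present at lower levels, and most of their sums were lower in TAC. The summed level of 14 endothelial markers was 782 and 622 CPM in sham 1 and 2, against 376 and 525 CPM in TAC 1 and 2. That of 12 fibroblast markers was 560, 388, 225 and 307 CPM in the same order, that of 12 macrophage markers 142, 72.2, 38.8 and 72.3 CPM, and that of 8 mural markers 368, 380, 157 and 268 CPM. Of 5 red blood cell genes, the sum was 84.9, 73.7, 49.9 and 125 CPM, and edgeR, DESeq2 and limma called 0, with 0 at an unadjusted p under 0.05 (without TAC 1, edgeR called 2 higher, and without TAC 2, 2 lower). None of the marker genes was at 0 in all libraries.

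The member genes lie apart in the genome. In GENCODE M21 (GRCm38) Klf6 (ENSMUSG00000000078) occupies chr13:5861482-5870394, Klf2 (ENSMUSG00000055148) chr8:72319033-72321656 and Klf15 (ENSMUSG00000030087) chr6:90462576-90475238 on the plus strand, and Klf4 (ENSMUSG00000003032) chr4:55527143-55532466 on the minus strand. Klf9 (ENSMUSG00000033863) lies at chr19:23141226-23168134, Klf3 (ENSMUSG00000029178) at chr5:64803388-64832901 and Klf5 (ENSMUSG00000005148) at chr14:99298691-99315036 on the plus strand. Klf7 (ENSMUSG00000025959) lies at chr1:64029447-64122282, Klf10 (ENSMUSG00000037465) at chr15:38291463-38300706 and Klf13 (ENSMUSG00000052040) at chr7:63886351-63938915 on the minus strand. All are protein-coding, and values are per gene.

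Before the values, promoter sequences of the members are shown. RefSeq promoter windows of GRCm38.p6, from 250 bases before to 50 after an annotated start, were found for 8 of the 10 members, not for Klf5 or Klf10. The windows of 30 bases below hold the matches to regulatory motifs that are sparse among all promoters, with the matching bases in capitals and the first matching base counted from the start. The E-box (CACGTG), bound by the clock factors among others, was found in 3 members. Klf15, a gene with daily rhythm in the heart, held 3 copies at −228, −172 and −3, on the plus strand of chr6:90462336-90462365, chr6:90462392-90462421 and chr6:90462561-90462590:
Klf15 E-box at −228: ctcccgaggtccCACGTGgtctgcacttcg
Klf15 E-box at −172: tagaacccgtctCACGTGcgcatcggagga
Klf15 E-box at −3: cgcccgcggcgtCACGTGagcggccggaga

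A single E-box stood at −182 in Klf4 (chr4:55532640-55532669, minus strand) and at −43 in Klf6 (chr13:5861434-5861463, plus strand):
Klf4 E-box: cgcccccgccccCACGTGcgcggagtttgt
Klf6 E-box: ctccaagctggtCACGTGgggggagaaggg

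Klf2 was the member with a MEF2 element, the binding sequence of myocyte enhancer factors, at −118 (chr8:72318934-72318963, plus strand). Klf9 was the member with a match to TGANTCA (where N is any base), at −89 (chr19:23141126-23141155, plus strand). This pattern is looser than the AP-1 site of Fos and Jun, TGA(C/G)TCA, and the match, TGAATCA, has A at the centre. The match, labelled AP-1 site below, shared bases with a CACCC element:
Klf2 MEF2 element: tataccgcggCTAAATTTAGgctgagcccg
Klf9 AP-1 site: gtaaacagagtTGAATCAccctccccactg

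Both strands were searched. Among all 32851 promoter windows an E-box was present in 7.2%, a MEF2 element in 3.2% and a match to TGANTCA in 7.8%. The full cyclic AMP response element TGACGTCA, in 1.8% of all windows, and the CArG box of serum response factor, in 1.6%, were in none of the 8. The shorter TGACG, which is contained in the full element, was in 6 of 8 (20.8% of all windows), the KLF element CACCC in 6 of 8 (57.5%) and the GC box GGGCGG in 7 of 8 (35.7%). In Klf15 the E-box at −3 shared bases with a TGACG match, and in Klf3 and Klf13 a CACCC match shared bases with a GC box. These matches describe the sequence and were not tested for binding.

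**Figure D1:**
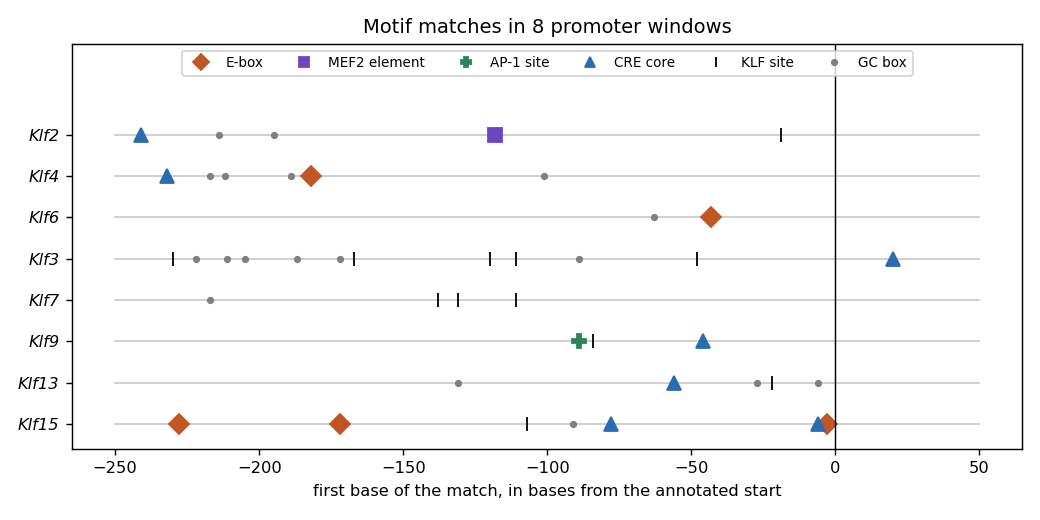
Motif matches in the RefSeq promoter windows of 8 members, with the first base of each match on the x axis in bases from the annotated start (vertical line). E-boxes are seen in Klf4, Klf6 and Klf15, which holds 3 of them, and the MEF2 element in Klf2.

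The levels of the members were first compared per length of transcript. In the deposited FPKM (fragments scaled by transcript length and by library size) Klf9, a glucocorticoid-responsive repressor, was highest in every library, at 23.16 and 24.5 in sham against 16.98 and 18.99 in TAC. Klf15 came next by group mean, at 11.39 and 17.03 in sham and 13.82 and 14.89 in TAC, although in sham 1 Klf2 stood above it at 12.58. In sham the order continued with Klf2 (10 ± 3.63 FPKM, mean ± SD, n = 2), Klf6 (8.61 ± 1.95), Klf4 (7.81 ± 2.28), Klf3 (4.86 ± 0.856), Klf13 (3.54 ± 0.516), Klf10 (3.12 ± 0.346) and Klf7 (1.68 ± 0.354). The ranges of neighbours overlapped between Klf15 and Klf2, Klf2 and Klf6, Klf6 and Klf4, and Klf13 and Klf10, so these pairs were not separated by the spread of 2 libraries.

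In TAC the middle of the order closed up. Klf2 stood at 4.56 ± 0.983 FPKM (mean ± SD, n = 2), Klf4 at 4.05 ± 0.0707, Klf6 at 4.01 ± 0.233, Klf3 at 3.43 ± 1.12, Klf10 at 2.74 ± 1.42 and Klf13 at 2.33 ± 0.806. Each of these overlapped with the next in this list. The transcript lengths implied by counts and FPKM differed between TAC 1 and TAC 2 for Klf3 (5225 and 4341 bases) and Klf10 (2052 and 3023 bases). Klf15 and Klf2, which overlapped in sham, did not overlap in TAC. Klf7 was at 1.14 ± 0.233 FPKM.

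Klf5, which in the heart has been tied to fatty acid metabolism and to fibroblasts, was close to undetected. Its FPKM lay between 0.01 and 0.05 with 4 and 3 counts in sham and 1 and 4 in TAC. It did not pass the filter on low counts and was not compared between groups, so 9 of the 10 members entered the test.

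**Figure D2:**
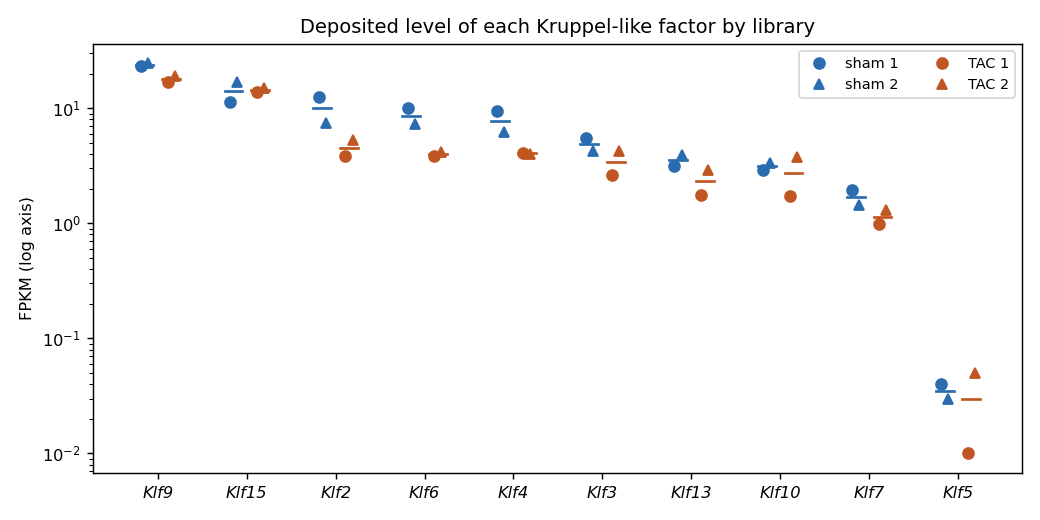
Deposited FPKM (log axis) of the 10 members in each library, ordered by the mean of the 4 libraries, with a bar at the mean of each group (n = 2). Klf9 lies highest in all libraries, Klf15 is next except in sham 1, where Klf2 is above it, and Klf5 stays at 0.05 FPKM or lower.

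To ask how pressure overload affects these genes, TAC was compared with sham. Klf6 was the member whose fall passed the test. Klf2 and Klf4 had changes of similar size and missed the threshold. Klf15 and Klf10 overlapped between the groups. Of the 9 members tested, 1 was called lower and 0 higher by the quasi-likelihood test of edgeR (adjusted p under 0.05, Benjamini-Hochberg over 12499 genes), against 2.43% of all tested genes called lower and 2.58% called higher. At an unadjusted p under 0.05 there were 4 of the 9 (Klf2, Klf4, Klf6 and Klf9, all lower), against 27.5% of all tested genes. DESeq2 and limma each called 3 members lower and 0 higher, where they called 440 of 16015 and 330 of 10833 genes lower. The count of members called lower was also 3 with total-count scaling, where 423 of 12499 genes were called lower. Both TAC libraries lay below both sham libraries in 7 of 9 members and above them in 0, where all tested genes gave 30.3% and 29.8%. The median log2 fold change of the 9 members was −0.31, beside −0.01 for all tested genes.

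Klf2, Klf6 and Klf4 had the largest log2 fold changes of the 9 members, and Klf10, also a gene that responds fast to stimuli, one of the smallest. Klf6, a widely expressed factor of the early response, stood at 36.9 and 28.4 CPM in sham 1 and sham 2 and at 18.7 and 17.5 in TAC 1 and TAC 2. Both TAC libraries were below both sham libraries, and the fall from 32.6 ± 6 to 18.1 ± 0.862 CPM (mean ± SD, n = 2 each) left a fold of 0.555. The log2 fold change was −0.85 ± 0.14 (± SE, edgeR adjusted p = 0.0212). Klf6 was called in all 13 alternative analyses at this threshold, with log2 fold changes from −1.05 to −0.65 and adjusted p from 3.79e-05 to 0.0342.

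Klf2, the endothelial factor induced by laminar flow, was at 21.2 CPM in sham 1 and 13.2 in sham 2, against 8.21 in TAC 1 and 9.61 in TAC 2. The groups did not overlap, but sham 1 lay well above sham 2. The log2 fold change was −0.95 ± 0.22 with a 95% interval from −1.47 to −0.44, a fold of 0.516 (edgeR adjusted p = 0.0533). Klf2 was not called, although 8 of the 13 alternatives called it, with adjusted p from 0.00106 to 0.15. Leaving out sham 1 gave −0.57 (edgeR adjusted p = 0.101), leaving out sham 2 gave −1.24, and leaving out TAC 1 gave −0.84 (edgeR adjusted p = 0.15).

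Klf4, also flow-induced and known from reprogramming of cell identity, had 25.5 and 16.1 CPM in the sham libraries and 14.1 and 11.6 in the TAC libraries. The lower sham library and the higher TAC library differed by little. The log2 fold change was −0.70 ± 0.22 (95% interval −1.20 to −0.19, edgeR adjusted p = 0.0967), and 6 of the 13 alternatives called it, with adjusted p from 0.00321 to 0.364. Without sham 1 the change was −0.32, and without sham 2 it was −0.98.

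Klf10, first found as a gene induced by transforming growth factor beta, depended on which TAC library was read. It stood at 8 CPM in sham 1 and 9.42 in sham 2, while TAC 1 had 4.09 and TAC 2 had 11.2. The TAC libraries lay on both sides of the sham libraries, at 114 counts in TAC 1 and 274 in TAC 2. The log2 fold change of −0.20 ± 0.39 was not called (95% interval −1.1 to 0.71, edgeR adjusted p = 0.775). It was −1.09 without TAC 2 (edgeR adjusted p = 0.015) and 0.37 without TAC 1 (edgeR adjusted p = 0.334).

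**Figure D3:**
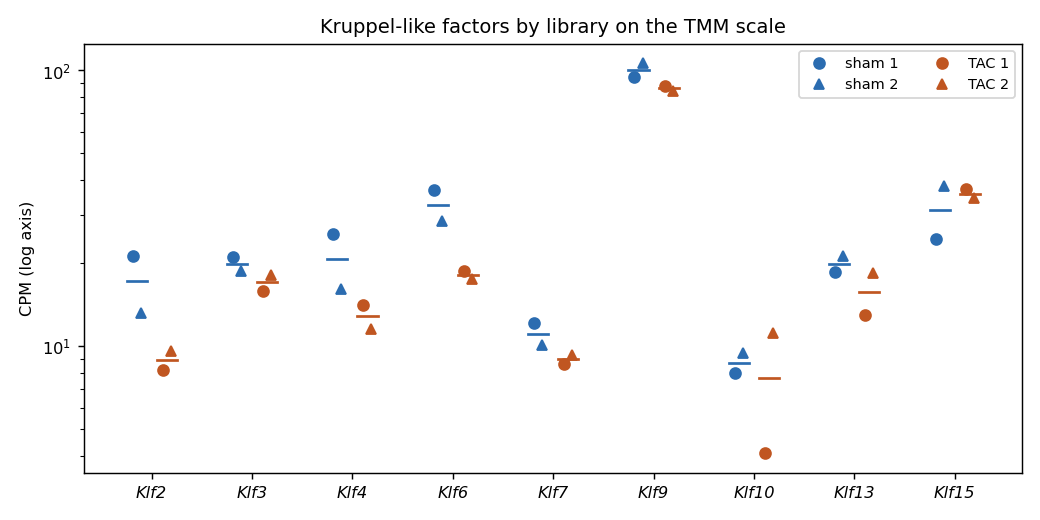
TMM-scaled CPM (log axis) of the 9 tested members in each library, with a bar at the mean of each group (n = 2). The 2 groups are apart for Klf6 and Klf2, while Klf10 and Klf15 overlap, with TAC 1 lowest for Klf10 and sham 1 lowest for Klf15.

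Klf15 and Klf9, the members linked to glucocorticoids and to metabolism, had small differences. Klf15, an activator of amino acid and lipid catabolism, was at 24.5 CPM in sham 1 and 38.1 in sham 2, with 37.2 and 34.4 CPM in TAC 1 and TAC 2. Both TAC libraries lay between the sham libraries, which differed from each other more than the group means did. The log2 fold change was 0.20 ± 0.18 (95% interval −0.23 to 0.63, edgeR adjusted p = 0.514). This interval leaves room for a fall of 0.23 and for a rise of 0.63 on the log2 scale. The change turned to −0.09 without sham 1, rose to 0.55 without sham 2 (edgeR adjusted p = 0.0347), and was 0.01 when the libraries were scaled by total counts.

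Klf9, a repressor that is induced by glucocorticoid and thyroid hormone, was at 94.7 and 106 CPM in sham 1 and 2, and at 87.7 and 84.5 CPM in TAC 1 and 2. The groups did not overlap, and the difference was small against the level of the gene. The log2 fold change of −0.22 ± 0.08 was not called (95% interval −0.41 to −0.03, edgeR adjusted p = 0.14) and was called in 0 of 13 alternatives. It was −0.13 without sham 2 (edgeR adjusted p = 0.509).

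The remaining members had small differences in the same direction. Klf3, a repressor that works through the corepressor CtBP, stood at 21.1 and 18.8 CPM in sham 1 and sham 2 and at 15.9 and 18.2 in TAC 1 and TAC 2. Klf7, best known from neurons and adipose tissue, was at 12.1 and 10.1 CPM in sham and 8.64 and 9.32 in TAC. Klf13, a GC-box factor with a part in heart development, was at 18.6 and 21.2 CPM in sham and 13.0 and 18.4 in TAC. In these genes the TAC libraries lay below the sham libraries without a wide gap. The log2 fold changes were −0.23 ± 0.12 for Klf3, −0.31 ± 0.14 for Klf7 and −0.34 ± 0.17 for Klf13 (edgeR adjusted p 0.242, 0.214 and 0.232), and the 95% intervals reached from −0.51 to 0.04, from −0.64 to 0.03 and from −0.74 to 0.05. Klf3 was at −0.15 without sham 1 and −0.14 without TAC 1, and Klf7 at −0.17 without sham 1. Klf13 was at −0.61 without TAC 2 (edgeR adjusted p = 0.0349) and at −0.11 without TAC 1. Genes on the opposite strand overlap exons of Klf3 and Klf7 in the annotation, and whether the counting used strand is not stated.

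**Figure D4:**
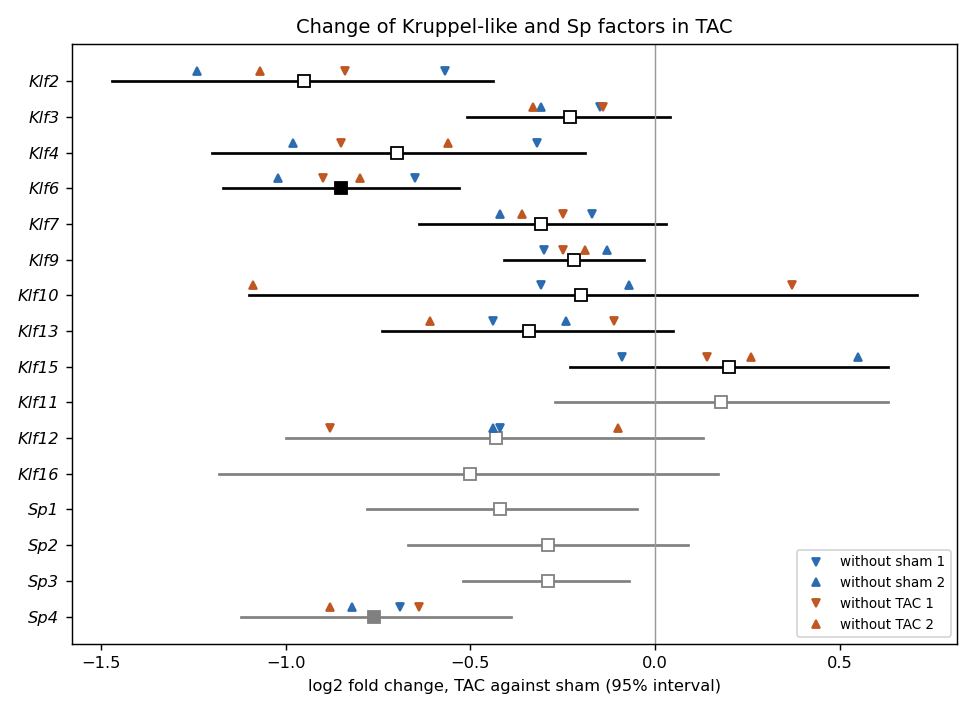
Log2 fold change of TAC against sham with its 95% interval for the 9 tested members (black) and for the related Klf and Sp genes tested (grey), where filled squares were called by edgeR, and triangles give the change of the members, Klf12 and Sp4 with 1 library left out. Klf6 and Sp4 are the filled squares, and the triangles of Klf10 and Klf15 fall on both sides of 0.

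The scaling of the libraries bears on these small differences. With total counts, the scaling named in the methods of the study, the median of all tested genes moved to −0.20 and the members moved down with it. Then Klf2 (−1.14, edgeR adjusted p = 0.036), Klf4 (−0.90, 0.049) and Klf6 (−1.05, 0.0135) were called lower. Relative to the median of all genes these changes were close to those with TMM factors. Klf9 was at −0.41 and Klf3 at −0.42 under this scaling, with edgeR adjusted p of 0.0794 and 0.181.

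RNA of several other cell types varied between the libraries, and between the sham libraries some members varied in the same direction. Sham 1 exceeded sham 2 by 0.66 for Klf2, 0.65 for Klf4 and 0.37 for Klf6 on the log2 scale, and its summed endothelial, fibroblast and macrophage markers were the highest of the 4 libraries. Klf3 and Klf7 were also highest in sham 1. On the same scale TAC 1 minus TAC 2 was −0.21 for Klf2, 0.27 for Klf4 and 0.09 for Klf6. The summed endothelial, fibroblast and macrophage markers were lower in TAC 1 than in TAC 2, so Klf4 and Klf6 went the other way there. The mural sum was highest in sham 2 and the red blood cell sum in TAC 2. Of the 14 endothelial markers, 14 had a log2 fold change below 0 in TAC and 3 were called lower, with a median of −0.62. The medians were −0.83 for the 12 fibroblast markers (4 called lower), −0.92 for the 12 macrophage markers (0 called, 6 at an unadjusted p under 0.05), and −0.92 for the 8 mural markers (1 called lower). DESeq2 called 7 endothelial, 5 fibroblast, 1 macrophage and 2 mural markers lower. These counts depended on single libraries. Without TAC 1, edgeR called 1 endothelial, 0 fibroblast, 0 macrophage and 0 mural markers lower, and without TAC 2 it called 13, 8, 6 and 6. Without sham 2 the counts were 12, 9, 9 and 3, and without sham 1 they were 3, 3, 0 and 3. Cdh5, the cadherin of endothelial junctions, stood at 115 and 99.9 CPM in sham and 52.9 and 66.4 in TAC (log2 fold change −0.85 ± 0.12, edgeR adjusted p = 0.0149).

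Each member was also set against the summed endothelial markers of the same library. Klf2 amounted to 2.71% and 2.13% of the endothelial sum in sham 1 and 2, and to 2.19% and 1.83% in TAC 1 and 2. Klf4 amounted to 3.27% and 2.58% in sham and to 3.75% and 2.21% in TAC. Klf6 amounted to 4.72% and 4.57% in sham and to 4.98% and 3.34% in TAC. For each of these 3 genes the TAC range overlapped the sham range, as it did for Klf9 and Klf10. In the other 4 members both TAC libraries lay above both sham libraries on this ratio, and in 0 of the 9 below. Over all tested genes the shares were 69.6% above and 3.9% below, since the endothelial sum itself was lower in TAC, so the 4 of 9 are no result about the members. Klf3 amounted to 2.7% and 3.03% in sham and to 4.23% and 3.46% in TAC, and Klf7 to 1.54% and 1.63% in sham and to 2.3% and 1.78% in TAC. Klf13 amounted to 2.37% and 3.4% in sham and to 3.45% and 3.5% in TAC, and Klf15 to 3.14% and 6.12% in sham and to 9.91% and 6.56% in TAC. In bulk RNA, fewer cells of a type and less RNA per cell cannot be told apart. The ratio was computed after the group difference was known, it fixes no cell of origin, and the part of endothelial RNA in the differences of the members was not tested.

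Immediate early genes, which cells switch on within minutes of a stimulus, were read beside the members. The summed level of the 22 genes listed was 1340 and 819 CPM in the sham libraries and 486 and 426 CPM in the TAC libraries. Their median log2 fold change was −1.43, with 11 called lower and 1 higher of 22 (8 lower without TAC 1). The gene called higher was Nr4a3, an orphan nuclear receptor, at 2.5 and 2.15 CPM in sham and 12.8 and 11.2 in TAC (2.36 ± 0.17, edgeR adjusted p = 0.00342). Fos went from 127 and 64.3 CPM in sham to 14.1 and 16.2 in TAC (log2 fold change −2.66 ± 0.30, edgeR adjusted p = 0.00641), and Egr1 from 172 and 86.0 to 19.2 and 23.6 CPM (−2.60 ± 0.30, edgeR adjusted p = 0.00747). The log2 fold changes of Klf2, Klf6 and Klf4 (−0.95, −0.85 and −0.70) were smaller in size than these. Ccn1, the most abundant of the list, was at 159 and 128 CPM in sham and 151 and 118 in TAC and was not called (−0.09 ± 0.14, edgeR adjusted p = 0.706). The sum of the immediate early genes was lower in both TAC libraries than in both sham libraries, as were the endothelial, fibroblast and mural sums. Their part in the differences of the Krüppel-like factors was not tested.

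**Figure D5:**
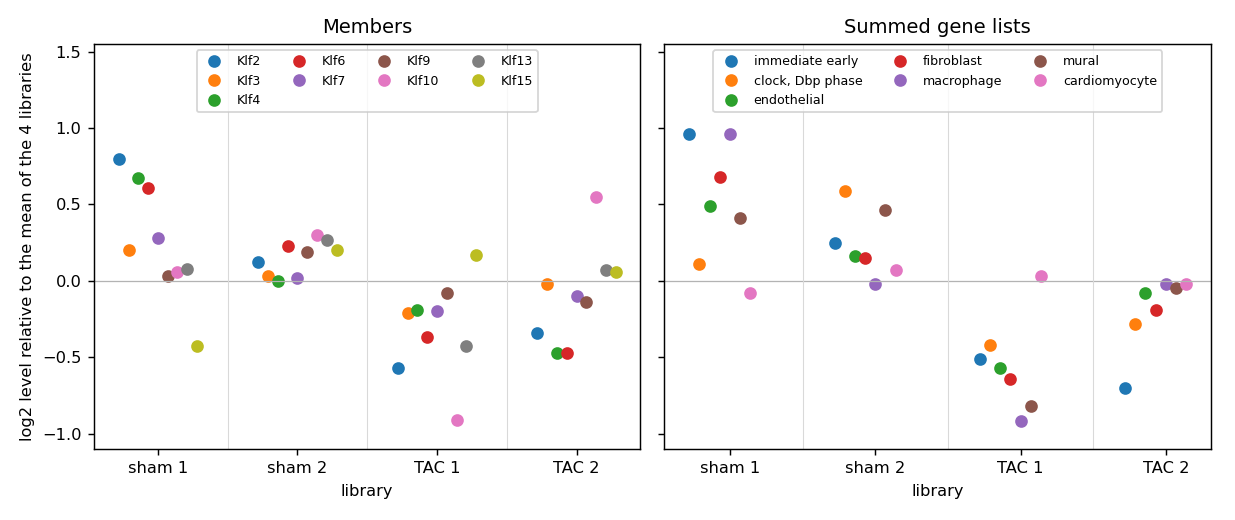
Log2 level in each library relative to the mean of the 4 libraries, for the 9 tested members (left) and for the summed CPM of gene lists (right). Klf2, Klf3, Klf4, Klf6 and Klf7 are highest in sham 1, as are the immediate early, endothelial, fibroblast and macrophage sums, and the cardiomyocyte sum varies least.

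The rest of the family was then examined. Of the 7 other Klf genes (Klf1, Klf8, Klf11, Klf12, Klf14, Klf16 and Klf17), 3 were tested and 0 were called by edgeR, DESeq2 or limma, with 0 at an unadjusted p under 0.05. The highest mean CPM over the 4 libraries was that of Klf12, a corepressor-binding relative of Klf3, at 7.84 and 7.72 CPM in sham and 7.24 and 4.21 in TAC (log2 fold change −0.43 ± 0.24, edgeR adjusted p = 0.285). Its change was −0.88 without TAC 1 and −0.10 without TAC 2 (edgeR adjusted p 0.0637 and 0.749). In TAC alone the mean of Klf11, at 6.55 CPM, was above that of Klf12, at 5.73 CPM. Of the 9 Sp genes, which share the zinc fingers and bind GC boxes, 4 were tested. All 4 had both TAC libraries below both sham libraries, as did 30.3% of all tested genes. Of the 4, 1 was called lower, against 2.43% of all tested genes. This was Sp4, at 10 and 9.14 CPM in sham and 5.20 and 6.18 in TAC. It changed by −0.76 ± 0.16 on the log2 scale (edgeR adjusted p = 0.042), and this call was lost without sham 1 (adjusted p = 0.106), without TAC 1 (0.128) and in 2 further alternatives, with a range from 0.00544 to 0.128 over all 13.

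Genes upstream of the family or working with it were for the most part not called. Of 10 genes of the ERK5 and CCM pathways and the Mef2 factors, which act upstream of Klf2 and Klf4 in the endothelium, 0 were called by edgeR, DESeq2 or limma (1 lower with total-count scaling, 2 lower at an unadjusted p under 0.05), with a median log2 fold change of −0.12. Of 11 cofactors and turnover enzymes, such as the corepressors CtBP and Sin3, 0 were called by these tools, with 1 lower and 1 higher at an unadjusted p under 0.05 (median −0.04). Of 7 partners in heart muscle, 1 was called higher (2 without sham 2, without TAC 2 or with DESeq2, and 0 without TAC 1). This was Srf, serum response factor, whose coactivator Klf15 is known to oppose, at 52.8 and 54.3 CPM in sham and 76.5 and 70.0 in TAC (log2 fold change 0.45 ± 0.08, edgeR adjusted p = 0.0278). The call was lost with total-count scaling (0.26, edgeR adjusted p = 0.213), with FPKM and without TAC 1. Ppara, a nuclear receptor of fatty acid use and a target of Klf5, was at 14.7 and 18.2 CPM in sham and 15.6 and 13.9 in TAC and was not called (−0.16 ± 0.14, edgeR adjusted p = 0.482).

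Known targets were compared as well. Of 8 genes of metabolism and ion channels linked to Klf15, 0 were called by edgeR, DESeq2 or limma, 0 had an unadjusted p under 0.05, and the median log2 fold change was −0.01. Kcnip2, the channel subunit through which Klf15 acts on the daily rhythm of repolarisation, stood at 104 and 111 CPM in sham and 101 in both TAC libraries (−0.09 ± 0.07, edgeR adjusted p = 0.465). Slc2a4, the insulin-responsive glucose transporter, was at 434 and 456 CPM in sham and 450 and 453 in TAC (0.02 ± 0.07, edgeR adjusted p = 0.885).

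Of 5 endothelial genes under Klf2 and Klf4, all 5 had both TAC libraries below both sham libraries. So did 11 of the 14 endothelial markers and 30.3% of all tested genes. Of the 5, edgeR, DESeq2 and limma called 0, 4 were lower at an unadjusted p under 0.05 in edgeR, and the median was −0.49. Without sham 2 or without TAC 2, edgeR called 2 of the 5 lower. Nos3, the endothelial nitric oxide synthase, was at 13.6 and 11.9 CPM in sham and 7.89 and 10.3 in TAC (−0.49 ± 0.16, edgeR adjusted p = 0.111). It was called without TAC 2 (−0.69, edgeR adjusted p = 0.0399) and was at −0.31 without TAC 1 (0.387). Thbd, thrombomodulin, was at 25.9 and 20.5 CPM in sham and 17.9 and 18.0 in TAC (−0.37 ± 0.13, edgeR adjusted p = 0.121). Klf2 is known to induce both of these and to repress Edn1 (endothelin 1) and Kdr (a receptor of vascular endothelial growth factor), which had log2 fold changes of −0.49 ± 0.31 and −0.61 ± 0.18 and were not called (edgeR adjusted p 0.344 and 0.0914). Kdr was called without sham 2 (−0.79, edgeR adjusted p = 0.0116) and without TAC 2 (−0.90, 0.00915), and was at −0.40 without sham 1 (0.159) and −0.37 without TAC 1 (0.259). Thbd was called without sham 2 (−0.52, edgeR adjusted p = 0.0491) and was at −0.19 without sham 1 (0.557). The endothelial markers as a whole, with Kdr among them, had a median of −0.62.

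Klf9, Klf10 and Klf15 are known to follow glucocorticoids or the circadian clock, so genes of both systems were read beside them. Of 10 clock genes in phase with Dbp, 3 were called lower and 0 higher, with a median log2 fold change of −0.84. The count called lower was 9 without sham 1, 2 without sham 2 or without TAC 1, 4 without TAC 2, and 6 with DESeq2. Dbp itself went from 32.8 and 57.7 CPM in sham to 4.81 and 10.8 in TAC (−2.55 ± 0.38, edgeR adjusted p = 0.0161). Nr1d2, a repressor of the clock, was called lower as well (−0.80 ± 0.11, edgeR adjusted p = 0.0121), as was Per3 (−1.38 ± 0.29, edgeR adjusted p = 0.0441), which lost the call without sham 2 (0.0502) and without TAC 1 (0.116). The summed level of the 10 genes was 319 and 445 CPM in sham 1 and 2 and 220 and 243 CPM in TAC 1 and 2. In Klf9 sham 2 was likewise highest, then sham 1, then both TAC libraries, and so it was in Klf13. The TAC libraries of Klf15 lay within its sham range, and those of Klf10 on both sides of it. Of 5 genes of the opposite phase, 2 were called higher (Nfil3 and Cry1, median of the 5 genes 0.82, 3 called without sham 1), and Cry1 kept its call in 6 of 13 alternatives, losing it without sham 2 (edgeR adjusted p = 0.108), without TAC 1 (0.0871) and without TAC 2 (0.0507) among others.

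Of 10 glucocorticoid-responsive genes, 1 was called lower (Dusp1, −1.22 ± 0.20, edgeR adjusted p = 0.0242) and 2 were called higher (Ddit4, 1.21 ± 0.21, edgeR adjusted p = 0.026, and Cdkn1a, 0.88 ± 0.19, edgeR adjusted p = 0.0443), with a median of −0.33. Without sham 1, 4 were called lower, and without sham 2, 2. Cdkn1a was not called without TAC 1 (edgeR adjusted p = 0.124), with total-count scaling (0.67, edgeR adjusted p = 0.073), with totals without mitochondrial genes (edgeR adjusted p = 0.0711) or with limma on FPKM (adjusted p = 0.0672). The hour at which hearts were taken is not stated, and the part of the clock genes in the values of the Krüppel-like factors was not tested.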

How the data were processed

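For each of the 4 libraries the authors deposited FPKM and an expected count (estimated, not always whole) for every gene. The submitters' processing notes name Bowtie2 2.2.8, StringTie 1.3.1 and the mm10 build, with no role given. The counting step, its annotation and its strand setting: not given in the sources used here. Expected counts were rounded and tested in R 4.3.3 with edgeR 4.0.16 (filterByExpr, TMM factors, glmQLFit and glmQLFTest without a block), TAC against sham, with Benjamini-Hochberg adjustment over all genes tested. The script was tested on simulated data. The standard error was the log2 fold change divided by the square root of F. For 2 libraries against 2, exact permutation of 1 gene cannot go below p = 0.333, so p-values rest on the spread pooled over genes. Libraries of a group differed beyond sampling noise (chi-square per degree of freedom 9.19 for sham, 31.3 for TAC). Groups came from sample titles. The study named total-count scaling, run as an alternative, beside DESeq2 1.42.0, limma 3.58.1 on log2(FPKM + 1), other filters and scalings, the replicate block and each library left out. Positions came from GENCODE M21 (GRCm38), promoters from RefSeq (GRCm38.p6). Members and gene lists were chosen with earlier results of these data known. The rule named all members, the called genes of the Klf and Sp families (with none called, the most abundant), up to 4 called genes of each other list by size of change, the most abundant gene of each marker list, and Nos3, Thbd, Kcnip2, Slc2a4, Ppara and Srf. Some genes it allows are given by counts alone, and Ccn1, Edn1, Klf11 and Nr4a3 were added after their values were seen. No protein sequences were used here.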

Additional observations from a re-analysis of the deposited data

How the results depend on the processing

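Over 117 comparisons of a single member with an alternative, 98 kept direction and side of the threshold, 17 gained a call and 2 turned direction (neither called): Klf10, from −1.09 to 0.37 with a library left out, and Klf15, from −0.09 to 0.55. The count of members called lower, 1 with all libraries, was 3 with total-count scaling, DESeq2, limma on FPKM, no low-count filter, the replicate block, or an adjusted p under 0.1, and 0 under 0.01. It ranged from 1 to 4 with a library left out (4 without TAC 2, 3 without sham 2), and the members called higher from 0 to 1 (Klf15 without sham 2). Genes called over the whole table, 626, were 1676 with no filter, 1817 under 0.1, 92 under 0.01, and 301 (without TAC 1) to 1336 (without TAC 2). Of the calls, 48.6% were lower, against 80.1% of 528 with total counts, 70.6% of 637 with totals without mitochondrial genes and 78.2% of 422 with FPKM. It went the other way at an adjusted p under 0.01, to 23.9% of 92. With a library left out the share moved in both directions. Slc2a4 turned to −0.17 with total counts, −0.08 with totals without mitochondrial genes, −0.18 with FPKM, and −0.02 to 0.06 with a library left out. Ppara ranged from −0.31 to 0.01 with a library left out. The methods speak of pairs of sham and TAC mice and do not say which animals belong together. Deviations of sham 1 and TAC 1 correlated at −0.24, which with 2 libraries per group cannot decide whether shared numbers mark pairs. The crossed pairing, added after the data were seen, gave 2131 calls, 2 of them members lower. The causes of these moves were not tested. With 2 animals per group, a lone library left in a group is assumed to vary like the other group.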

Other observations

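The deposited FPKM of some Krüppel-like factors rested on a transcript length that was not the same in all libraries. Dividing counts by FPKM and the library total gave a length of 2052 bases for Klf10 in TAC 1, against 3046 in sham 1, 2905 in sham 2 and 3023 in TAC 2. TAC 1 was also the library in which Klf10 had its lowest level, at 114 counts. Klf12 varied from 4398 bases in TAC 1 to 5902 in TAC 2, and Klf3 from 4234 in sham 1 to 5225 in TAC 1. Klf13 varied from 5627 in sham 2 to 6404 in TAC 1. For Klf4 the range was 2692 in sham 2 to 2984 in TAC 1, and for Klf7 6862 in sham 1 to 7657 in TAC 1. Klf2 (1846 to 1848 bases) and Klf9 (4485 to 4486 bases) were the same in all libraries within 2 bases. Whether a different transcript of Klf10 was made in the heart of TAC 1 was not tested, since the files hold a single value per gene.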
